A study of Homo sapiens with 8 samples.

Results

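The genes described here repair DNA crosslinks and signal DNA damage. They comprise 36 human genes of the Fanconi anemia pathway, homologous recombination, nucleotide excision repair, translesion synthesis, mismatch repair and the damage checkpoint, selected by gene symbol from pathway knowledge, with earlier results of these data known. The Affymetrix expression array used measures each gene with 1 or several probe sets, each a group of short oligonucleotides. The annotation used names 56 probe sets for 34 of the 36 genes, among 22283 on the array. FANCA and BRCA2 were not named there and were not analysed here. After a filter on dim probe sets, 49 probe sets of 33 genes were tested among 13338. RAD52 was the gene left with none.

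Cells of an adenocarcinoma line from human non-small cell lung cancer were treated for 24 h. The line is not named in the labels. Control cells received control treatment, given as medium in one label and as DMSO in the design text. The other groups received rosiglitazone at 1 µM, carboplatin at 10 µM, or both drugs together, with doses for the combination that are not stated separately. Rosiglitazone is a ligand of the nuclear receptor PPARγ, and carboplatin is a platinum drug that binds DNA. The data comprise 8 arrays, 2 in each of the 4 groups. Whether duplicate arrays stem from separate cultures is not stated, so the p-values reflect no more than the variation among these arrays, possibly technical.

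Platinum drugs link bases within a strand and, less often, across the strands of DNA. Fanconi proteins recognise an interstrand crosslink at a stalled replication fork and direct its unhooking, after which translesion polymerases copy past the remnant and homologous recombination rebuilds the broken chromatid. Nucleotide excision repair removes links within a strand. The kinases ATM and ATR report the damage to CHEK2 and CHEK1, which hold the cell cycle. Much of this response works through phosphorylation and ubiquitin marks on proteins, which arrays that measure transcripts do not read.

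The MRE11 and CHEK1 promoters are shown because these genes had the smallest p-values among members for the carboplatin main effect. Each is the strand of the gene from 250 bases before to 50 after a RefSeq transcript start in GRCh38.p14, chr11:94493795-94494094 on the minus strand for MRE11 and chr11:125626106-125626405 on the plus strand for CHEK1, which has 3 such windows. Capitals mark CCAAT, a motif of many cell cycle promoters, or its reverse complement ATTGG.
MRE11: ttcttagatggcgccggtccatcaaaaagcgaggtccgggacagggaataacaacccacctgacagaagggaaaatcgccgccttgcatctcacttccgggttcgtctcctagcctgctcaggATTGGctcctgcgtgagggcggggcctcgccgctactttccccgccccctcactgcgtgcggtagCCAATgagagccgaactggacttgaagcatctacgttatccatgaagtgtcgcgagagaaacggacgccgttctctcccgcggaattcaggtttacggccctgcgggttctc
CHEK1: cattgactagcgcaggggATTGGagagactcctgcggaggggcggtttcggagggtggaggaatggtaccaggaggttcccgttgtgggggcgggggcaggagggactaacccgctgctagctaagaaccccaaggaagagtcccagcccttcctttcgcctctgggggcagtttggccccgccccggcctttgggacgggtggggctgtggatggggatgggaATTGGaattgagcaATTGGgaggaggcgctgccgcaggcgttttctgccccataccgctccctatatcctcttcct
The MRE11 window held 2 matches and this CHEK1 window 3, the most of its windows, since the other two CHEK1 windows held 1 each. Of the 33 tested genes, 30 had a window in the table used. CCAAT on either strand occurred in 15 of these 30 genes (50%), and in 39.7% of all 27305 genes with windows of this length. The E2F motif, bound by S phase regulators and searched on both strands as TTTGGCGC, TTTCGCGC, TTTCCCGC and TTTGCCGC, occurred in 5 of 30 (16.7%), against 3.99% of all genes. Those 5 were FANCC, XRCC2, EXO1, REV3L and MSH6, and MSH6 was the 1 gene of the 5 that also held CCAAT. A gene was counted if any of its windows matched, and the 30 genes had 44 windows, against 35116 for all 27305. Per window the shares were 43.2% against 34.6% for CCAAT and 11.4% against 3.31% for E2F. Neither motif contains the other, and a match describes the sequence only.

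Values below are log2(signal + 16) after quantile normalization, which gives all arrays the same distribution, and a difference of 1 on this scale is a 2-fold change well above the floor. The pseudocount of 16 understates changes of dim probe sets. The median deposited signal of an array ran from 36.2 to 54.3. Correlations between arrays over the tested probe sets ran from 0.964 to 0.984, with duplicates at 0.974 to 0.976. The keratins KRT8, KRT18 and KRT7, markers of simple epithelium, lay in the top 2% of probe sets by mean value. Of 6 epithelial markers 5 passed the filter, and EPCAM did not. Of 4 named lung lineage markers 3 passed it (SFTPB, SFTPC and FOXA2). The fourth, NKX2-1, a lung adenocarcinoma lineage factor, did not. Of the endothelial markers 0 of 3 passed it, as did 2 of 4 fibroblast markers (COL1A1 and DCN) and 2 of 3 leukocyte markers (CD3E and ITGAM), while PTPRC, the pan-leukocyte marker, did not.

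No repair or checkpoint gene passed the test in any comparison of the 4 groups. With limma and Benjamini-Hochberg adjustment over all 13338 probe sets at a threshold of 0.05, 0 of the 49 probe sets were called for carboplatin against control, where 0.015% of all probe sets were called. The count was 0 of 49 for rosiglitazone against control (0.36% of all called) and 0 of 49 for the combination against control (0.225% of all called). Setting the combination against each single drug, 0 of 49 passed against rosiglitazone (0.0225% of all called) and 0 of 49 against carboplatin (0.157% of all called). The main effect compares the 4 arrays with a drug to the 4 without it. It gave 0 of 49 for carboplatin (0.03% of all called) and 0 of 49 for rosiglitazone (0.885% of all called). The interaction, which asks whether the combination departs from the sum of the single drugs on the log2 scale, gave 0 of 49, with 0% of all called. An F test for any difference among the 4 groups also gave 0 of 49 (0.51% of all called). With so few probe sets called on the array, a count of 0 among 49 is near the background in each of these comparisons and is not a result about repair genes.

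At an unadjusted p under 0.05, where 5.17% of all probe sets passed for carboplatin against control, 1 of 49 members passed, and it was lower. For rosiglitazone against control 1 of 49 passed against a background of 10.4%, and for the combination against control 2 of 49 against 8.42%. The counts were 2 of 49 for the combination against rosiglitazone (4.54% of all) and 0 of 49 against carboplatin (6.43% of all). The main effects gave 2 of 49 for carboplatin (4.02% of all) and 1 of 49 for rosiglitazone (9.96% of all), the interaction 1 of 49 (5.97% of all) and the F test 0 of 49 (7.79% of all). None of these counts stood clearly above its background.

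**Figure D1:**
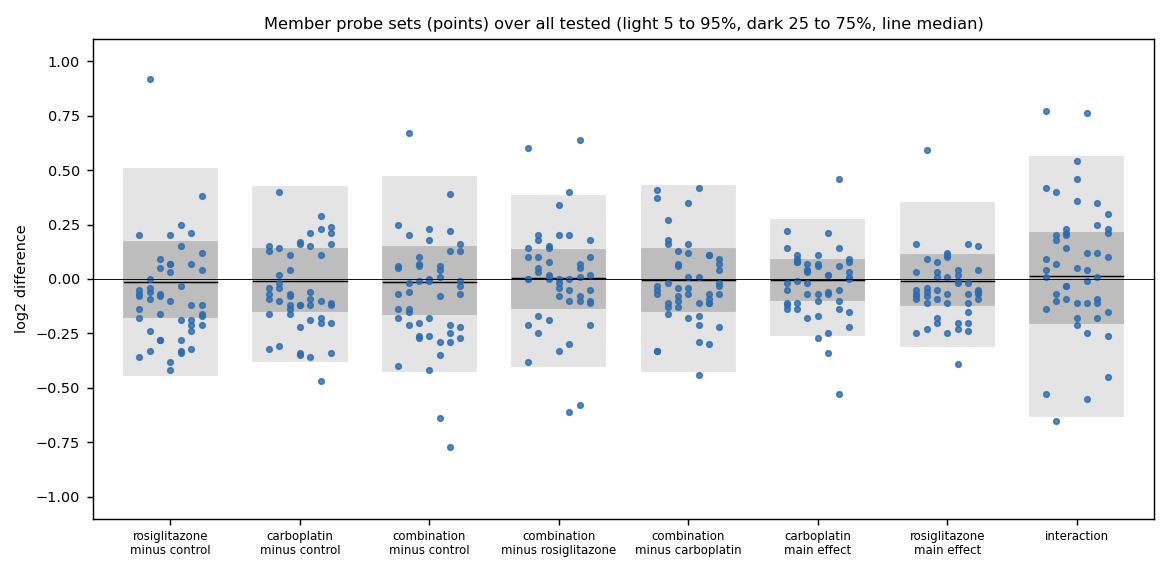
Log2 differences (vertical axis) of the 49 repair and checkpoint probe sets (points, spread sideways for legibility) in 8 comparisons, over the distribution of all 13338 tested probe sets (light band 5th to 95th percentile, dark band 25th to 75th, line median). Most points lie within the light bands, and the highest single value is ERCC2 with rosiglitazone at 0.92.

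Confidence intervals give the precision of each probe set over these arrays. They leave out variation between cultures if the duplicates are technical. The 95% confidence interval of limma, not adjusted for the number of genes, was set against a 2-fold change of signal plus pseudocount in either direction. For dim probe sets these bounds allow more than a 2-fold change in the signal itself. For carboplatin against control the interval lay within them for 46 of 49 members, against 90% of all probe sets. The exceptions were FANCF, MRE11 and ERCC2. The count was also 46 of 49 for rosiglitazone against control (87.5% of all) and 44 of 49 for the combination against control (88.6% of all). Against the single drugs, the combination lay within the bounds for 44 of 49 with rosiglitazone (90.6% of all) and 46 of 49 with carboplatin (89.5% of all). In the carboplatin main effect 48 of 49 lay within these bounds (98.4% of all), with FANCF (0.46, interval -0.26 to 1.18) as the exception. In the rosiglitazone main effect 48 of 49 did (97.4% of all), with ERCC2 (0.59, interval -0.17 to 1.36) outside. For the interaction only 36 of 49 did (65.2% of all), so departures from additivity were measured less precisely. These shares lay near those of all probe sets and are not a result about repair genes. The standard error of a member ran from 0.13 to 0.49 in comparisons of 2 groups, with a median of 0.21. The spread between the 2 arrays of a group was like that of other probe sets, with a median pooled SD of 0.195 for members and 0.188 over all.

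**Figure D2:**
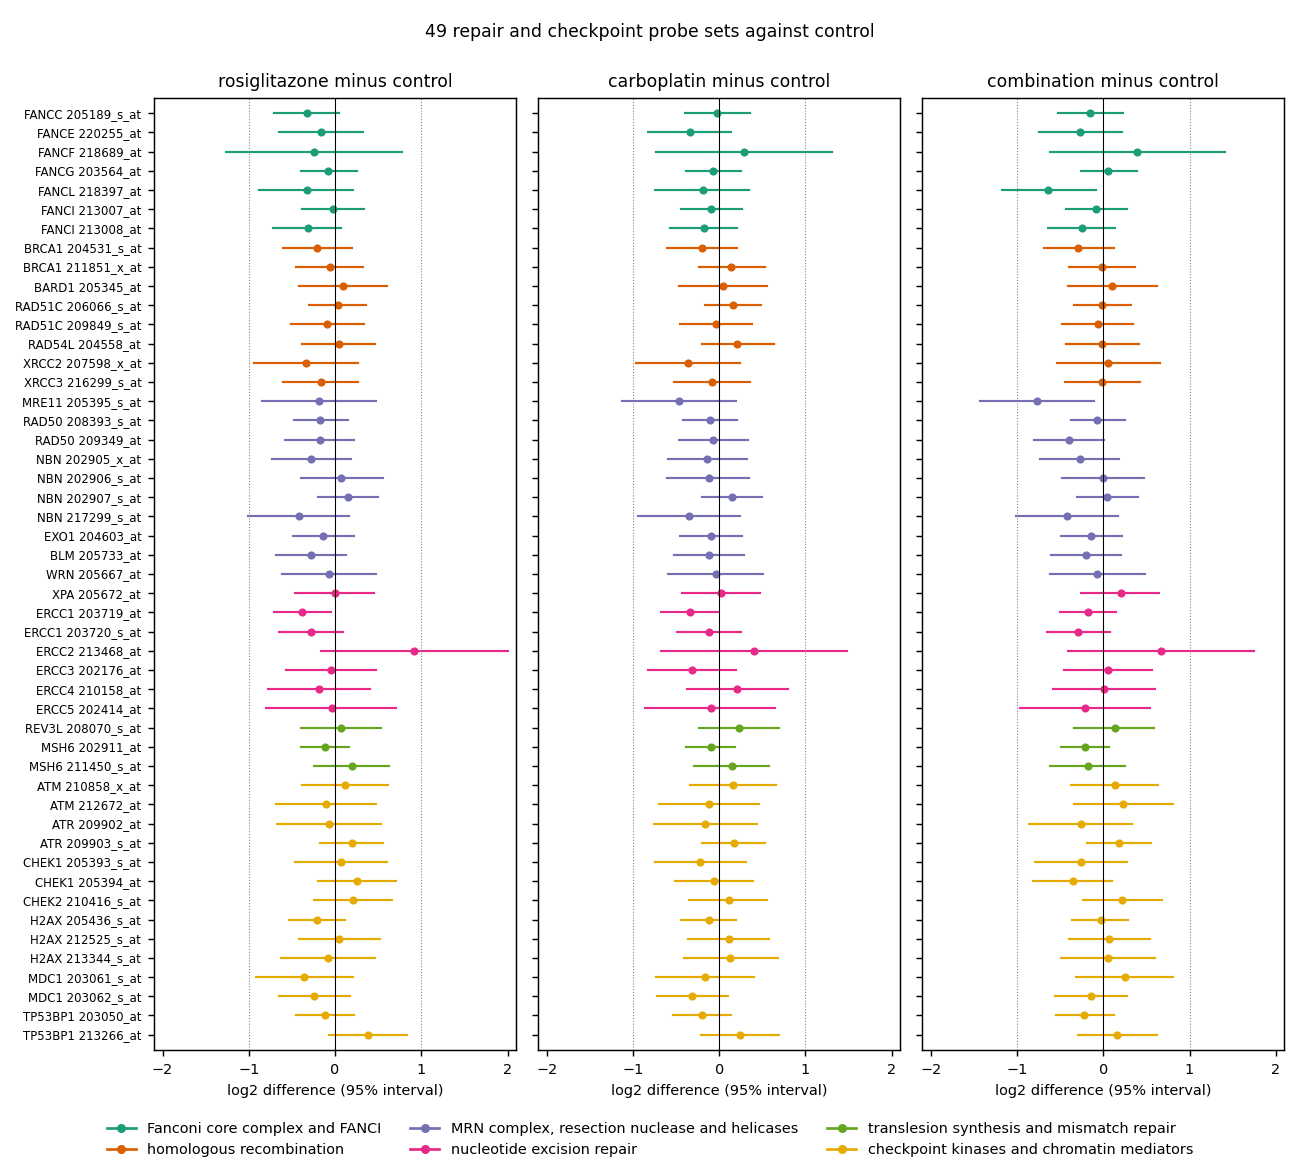
Log2 difference from control (horizontal axis, point) with its 95% confidence interval (line) for each of the 49 probe sets, coloured by role, with rosiglitazone, carboplatin and the combination in separate panels. Dotted lines mark a 2-fold change of signal plus pseudocount, which is more than 2-fold in the signal itself for dim probe sets. The widest intervals belong to FANCF and ERCC2, and no probe set passed after adjustment.

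More members lay below 0 than above it against control. With rosiglitazone 15 of 49 were above 0 (30.6%, against 48.1% of all probe sets), with carboplatin 17 of 49 (34.7%, against 48.7%) and with the combination 18 of 49 (36.7%, against 48%). The median member differed by -0.09, -0.09 and -0.06 in the same order, and the median of all probe sets by -0.01 in each. These comparisons share the 2 control arrays, so they do not repeat each other. On the deposited scale, without quantile normalization, the median of all probe sets for rosiglitazone against control was 0.22, and there 38 of 49 members were above 0 and their median was 0.13. For the combination 28 of 49 were above 0 on that scale, with a median of 0.02 against 0.08 for all probe sets. For carboplatin 17 of 49 were, with a median of -0.13 against -0.05. The median member thus lay below the median of all probe sets there too. The share of all probe sets above 0 was not computed for that scale. With median scaling 16, 16 and 18 of 49 were above 0 for rosiglitazone, carboplatin and the combination. The combination lay above rosiglitazone for 27 of 49 members (50.5% of all) and above carboplatin for 19 of 49 (49.3% of all). Above 0 were 23 of 49 in the carboplatin main effect (49.1% of all), 16 of 49 in the rosiglitazone main effect (47.8% of all) and 28 of 49 in the interaction (51.5% of all).

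Counting probe sets whose 2 arrays both lay beyond both control arrays gave the following shares. With rosiglitazone 14 of 49 lay wholly below control (28.6%, against 22.2% of all probe sets) and 5 wholly above (10.2%, against 19.8%). With carboplatin 9 lay below (18.4%, against 18.9%) and 5 above (10.2%, against 16.2%). For the combination 16 lay below (32.7%, against 19.5%) and 4 above (8.16%, against 17.3%). The combination lay wholly above rosiglitazone for 6 members (16% of all) and wholly below for 6 (15.1% of all), and above carboplatin for 5 (17.2% of all) and below for 8 (17.1% of all). In the carboplatin main effect, with 4 arrays on each side, 0 of 49 separated in either direction, where 1.2% of all did upward and 1.16% downward. In the rosiglitazone main effect 0 of 49 did upward (3.2% of all) and 1 of 49 downward (2.95% of all), which was FANCC.

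Among the Fanconi genes, FANCC, FANCE, FANCF, FANCG and FANCL belong to the nuclear core complex, in which FANCL is the ubiquitin ligase, and FANCI belongs to the complex that it marks. Of the 7 probe sets of these 6 genes, 0 were above 0 with rosiglitazone, 1 with carboplatin, 2 with the combination and 3 in the carboplatin main effect, and none passed. FANCL was at 6.70 and 7.28 on the control arrays, 6.44 and 6.87 on the rosiglitazone arrays, 6.91 and 6.67 on the carboplatin arrays, and 6.16 and 6.54 on the combination arrays. Both combination arrays lay below both control arrays, while the single-drug arrays overlapped control. The combination differed from control by -0.64 ± 0.25 (SE, n = 2 arrays per group here and below), at an adjusted p of 0.516, and by -0.35 without control 2. FANCL also had the smallest p of the members in the rosiglitazone main effect (-0.39 ± 0.18, adjusted p = 0.50), a value that was -0.24 without control 2 and -0.19 with the deposited scaling. FANCC was at 7.08 and 7.30 on the control arrays, 6.97 and 6.74 on the rosiglitazone arrays, 7.14 and 7.20 on the carboplatin arrays, and 7.05 and 7.03 on the combination arrays. All 4 arrays with rosiglitazone lay below the 4 without it, and rosiglitazone against control gave -0.33 ± 0.17 (adjusted p = 0.548), which was -0.21 without rosiglitazone 2 and -0.09 with the deposited scaling. FANCG spanned 0.32 over the 8 arrays, at 8.40 and 8.54 on the control arrays, 8.24 and 8.54 on the rosiglitazone arrays, 8.43 and 8.37 on the carboplatin arrays, and 8.56 and 8.50 on the combination arrays. FANCF spanned 1.87 over the 8 arrays, the widest of the tested members, because its 2 rosiglitazone arrays stood at 6.57 and 4.70. FANCE ran from 5.68 to 6.21, and the 2 probe sets of FANCI from 7.08 to 7.30 and from 7.86 to 8.54.

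Homologous recombination was read by BRCA1 and its partner BARD1, a ubiquitin ligase pair, by RAD51C, XRCC2 and XRCC3, which act in strand exchange, and by the motor protein gene RAD54L. Of their 8 probe sets 3 were above 0 with rosiglitazone, 4 with carboplatin, 2 with the combination and 6 in the carboplatin main effect. BRCA1 on probe set 211851_x_at was at 7.60 and 7.43 on the control arrays, 7.25 and 7.66 on the rosiglitazone arrays, 7.61 and 7.71 on the carboplatin arrays, and 7.47 and 7.53 on the combination arrays. On 204531_s_at it ran from 7.22 to 7.76, and the probe sets differed in sign for carboplatin. XRCC2 was at 6.64 and 6.19 on the control arrays, 6.34 and 5.81 on the rosiglitazone arrays, 6.04 and 6.07 on the carboplatin arrays, and 6.18 and 6.77 on the combination arrays. Both carboplatin arrays lay below control and the combination arrays spanned it, with an interaction of 0.76 ± 0.38 (adjusted p = 0.834). That value was 0.46 without combination 2 and 0.48 without rosiglitazone 2. BARD1 ran from 6.55 to 7.32, with both ends in the control group, RAD54L from 6.68 to 7.08, XRCC3 from 6.46 to 6.89, and the RAD51C probe sets from 7.57 to 7.85 and from 8.51 to 9.03.

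MRE11, RAD50 and NBN form the MRN complex that binds broken ends and activates ATM. EXO1 is a nuclease that resects those ends, and BLM and WRN are helicases of the RecQ family. Of the 10 probe sets of this group 2 were above 0 with rosiglitazone and 1 each with carboplatin, with the combination and in the carboplatin main effect, and none passed. MRE11 had the smallest p of all 49 in the carboplatin main effect. It was at 6.99 and 6.48 on the control arrays, 6.54 and 6.55 on the rosiglitazone arrays, 6.66 and 5.87 on the carboplatin arrays, and 5.65 and 6.28 on the combination arrays. The 2 combination arrays lay below all arrays without carboplatin, whereas 1 of the 2 carboplatin arrays overlapped them. The carboplatin main effect was -0.53 ± 0.21 (interval -0.99 to -0.06, adjusted p = 0.997), and the combination differed from control by -0.77 ± 0.30 (adjusted p = 0.516). The main effect was -0.33 without carboplatin 2. The combination difference was -0.46 without combination 1 and -0.51 without control 1. Carboplatin alone differed from control by -0.47 ± 0.30, a value that ran from -0.87 without carboplatin 1 and -0.73 without control 2 to -0.22 without control 1 and -0.08 without carboplatin 2. Another MRE11 probe set, 211334_at, below the filter, ran from 4.38 to 5.39.

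RAD50 was read by a pair of probe sets that did not order the groups alike. Probe set 209349_at was at 7.41 and 7.04 on the control arrays, 7.10 and 6.98 on the rosiglitazone arrays, 7.07 and 7.23 on the carboplatin arrays, and 6.85 and 6.80 on the combination arrays. Both combination arrays were the lowest of the 8, at -0.40 ± 0.18 from control (adjusted p = 0.599), and at -0.21 without control 1. Probe set 208393_s_at was at 8.34 and 8.41 on the control arrays, 8.08 and 8.34 on the rosiglitazone arrays, 8.28 and 8.26 on the carboplatin arrays, and 8.25 and 8.36 on the combination arrays, a difference of -0.07 ± 0.14 for the combination. The 4 probe sets of NBN differed in sign in all 8 comparisons. EXO1, BLM and WRN ran from 7.30 to 7.59, from 6.96 to 7.50 and from 5.96 to 6.57.

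In nucleotide excision repair, XPA verifies the lesion, ERCC3 and ERCC2 are helicases of TFIIH that open the strands, ERCC4 with ERCC1 cuts on one side and ERCC5 on the other. Of their 7 probe sets 1 was above 0 with rosiglitazone, 3 with carboplatin, 4 with the combination and 3 in the carboplatin main effect. ERCC1 is also part of the nuclease that unhooks crosslinks and has been studied as a marker of platinum response. Its probe set 203719_at was at 7.80 and 7.86 on the control arrays, 7.47 and 7.43 on the rosiglitazone arrays, 7.54 and 7.44 on the carboplatin arrays, and 7.71 and 7.60 on the combination arrays. All 6 treated arrays lay below both control arrays, and the duplicates differed little, with a pooled SD of 0.057, the lowest of the members. Rosiglitazone differed from control by -0.38 ± 0.15 (adjusted p = 0.417) and carboplatin by -0.34 ± 0.15 (adjusted p = 0.927). The interaction was 0.54 ± 0.21 (adjusted p = 0.821), the smallest p among members for that comparison. The rosiglitazone value was -0.14 with the deposited scaling. ERCC1 on probe set 203720_s_at was at 8.46 and 8.13 on the control arrays, 7.95 and 8.07 on the rosiglitazone arrays, 8.33 and 8.03 on the carboplatin arrays, and 8.08 and 7.94 on the combination arrays. Its rosiglitazone and combination arrays lay below control, its carboplatin arrays overlapped, and the carboplatin difference was -0.12 ± 0.17. The rosiglitazone main effect on it was -0.23 ± 0.12 (adjusted p = 0.591), a value that was -0.03 with the deposited scaling, -0.14 without control 1 and -0.15 without carboplatin 1.

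ERCC2 had the highest single value against control and the widest spread between duplicates (pooled SD 0.729). It was at 5.58 and 4.85 on the control arrays, 5.92 and 6.35 on the rosiglitazone arrays, 5.06 and 6.18 on the carboplatin arrays, and 5.13 and 6.64 on the combination arrays. Both rosiglitazone arrays lay above control, at 0.92 ± 0.49 (interval -0.16 to 2.0, adjusted p = 0.557), and at 0.56 without control 2. In each of the 4 groups the array of higher median signal also had the higher ERCC2 value. In a model that also holds array brightness, added once the values had been seen, the rosiglitazone value was 0.04. Both rosiglitazone arrays were brighter than both control arrays (median signal 46.4 and 54.3 against 45.8 and 36.2). Brightness and rosiglitazone therefore cannot be told apart from these 4 arrays alone. The carboplatin arrays had median signals of 37.6 and 44.6, with ERCC2 at 5.06 and 6.18. The combination arrays, which also had rosiglitazone, had medians of 37.2 and 52.2, with ERCC2 at 5.13 and 6.64. The cause of the ERCC2 difference was not tested. Over all members 3 probe sets were higher on the brighter array in every group (6.12%, against 9.27% of all probe sets), those of ERCC2, BRCA1 and MSH6. Another 3 were lower there in every group (6.12%, against 9.25%), from ERCC1, ATM and H2AX. That model called 0 of 49 in each of the 8 contrasts and the F test. XPA was at 6.78 and 7.03 on the control arrays, 6.90 and 6.91 on the rosiglitazone arrays, 6.67 and 7.18 on the carboplatin arrays, and 7.01 and 7.20 on the combination arrays, with each treated group overlapping control. ERCC3, ERCC4 and ERCC5 ran from 6.43 to 7.35, from 5.32 to 6.10 and from 5.27 to 6.28.

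REV3L encodes the catalytic subunit of polymerase zeta, which copies past unhooked crosslinks. It was at 6.69 and 6.44 on the control arrays, 6.44 and 6.83 on the rosiglitazone arrays, 6.65 and 6.95 on the carboplatin arrays, and 6.77 and 6.61 on the combination arrays, with all groups overlapping. MSH6, a subunit of the mismatch sensor, was at 9.66 and 9.51, 9.35 and 9.59, 9.48 and 9.49, and 9.31 and 9.43 on probe set 202911_at in the same order. On 211450_s_at it was at 8.83 and 9.03 on the control arrays, 9.10 and 9.16 on the rosiglitazone arrays, 8.89 and 9.27 on the carboplatin arrays, and 8.44 and 9.05 on the combination arrays. There the combination differed from carboplatin by -0.33 ± 0.20 (adjusted p = 0.874), a value that was -0.03 without combination 1, -0.14 without carboplatin 2, -0.52 without carboplatin 1 and -0.63 without combination 2. With the deposited scaling it was -0.17. Another MSH6 probe set, 211449_at, below the filter, ran from 4.13 to 5.01.

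**Figure D3:**
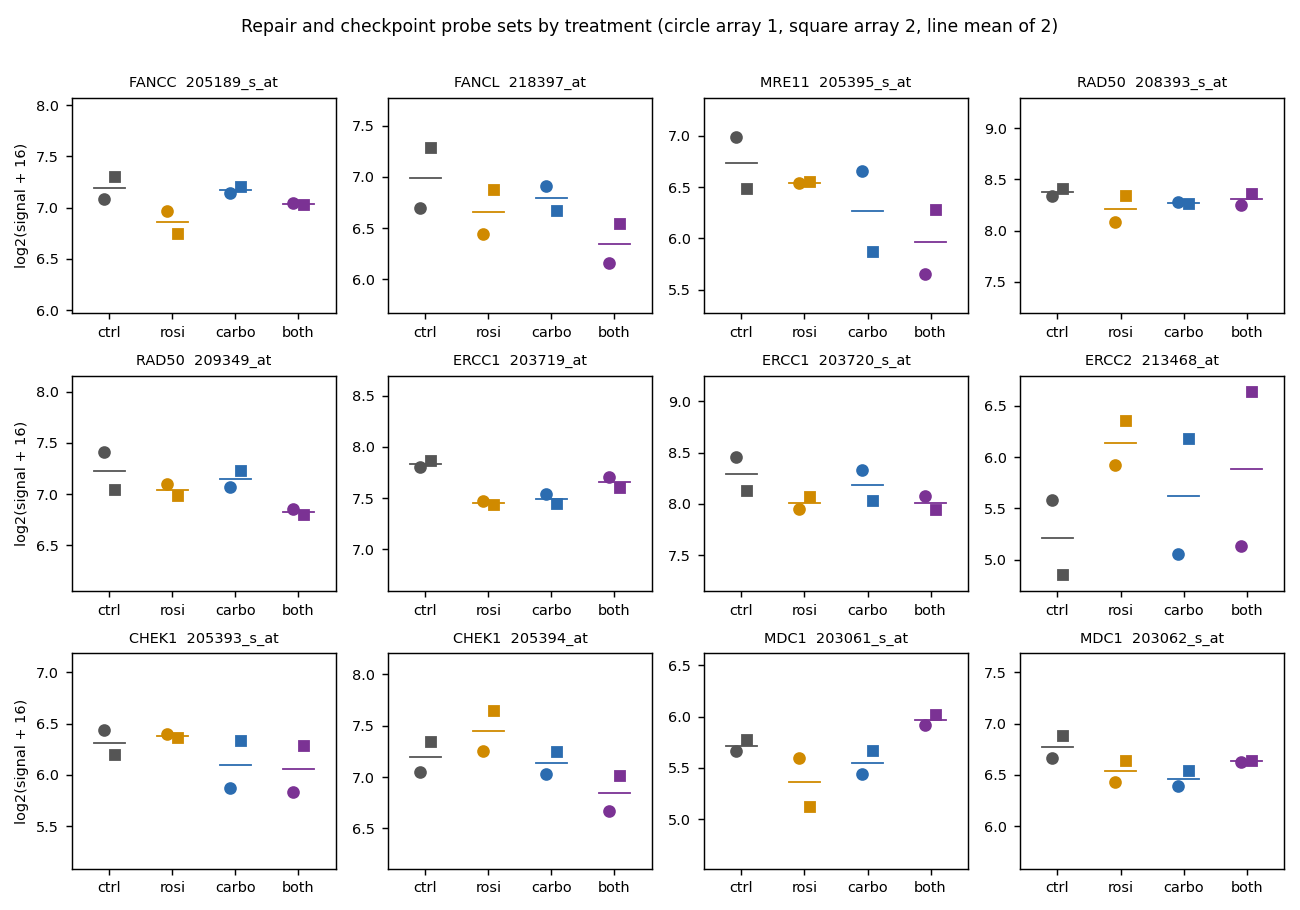
Log2(signal + 16) after quantile normalization (vertical axis, the same span in each panel) for the 12 tested probe sets of FANCC, FANCL, MRE11, RAD50, ERCC1, ERCC2, CHEK1 and MDC1 in the control, rosiglitazone (rosi), carboplatin (carbo) and combination (both) groups; the circle is array 1, the square array 2 and the line their mean. Duplicates of ERCC1 on 203719_at lie close together (pooled SD 0.057), while those of ERCC2 (0.729) and MRE11 (0.397) lie far apart.

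The checkpoint is read by the kinases ATM and ATR, their effectors CHEK2 and CHEK1, and the chromatin proteins H2AX, MDC1 and TP53BP1 that mark breaks. Of their 14 probe sets 7 were above 0 with rosiglitazone, 6 with carboplatin, 8 with the combination and 9 in the carboplatin main effect. CHEK1 had the smallest p of the members in the F test (adjusted p = 0.696). Its probe set 205394_at was at 7.05 and 7.34 on the control arrays, 7.25 and 7.64 on the rosiglitazone arrays, 7.03 and 7.24 on the carboplatin arrays, and 6.67 and 7.01 on the combination arrays. Both combination arrays were the lowest of the 8, and carboplatin alone overlapped control. The combination differed from rosiglitazone by -0.61 ± 0.21 (interval -1.06 to -0.16, adjusted p = 1.00), and the carboplatin main effect was -0.34 ± 0.15 (adjusted p = 0.997). CHEK1 on probe set 205393_s_at was at 6.44 and 6.19 on the control arrays, 6.40 and 6.36 on the rosiglitazone arrays, 5.87 and 6.33 on the carboplatin arrays, and 5.83 and 6.28 on the combination arrays. There too the combination arrays lay below the rosiglitazone arrays, and the main effect of carboplatin was -0.27 ± 0.17, or -0.16 without carboplatin 1 or without combination 1. CHEK2 was at 6.42 and 6.07, 6.55 and 6.35, 6.25 and 6.45, and 6.49 and 6.44 in the same order of groups.

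ATM, on probe set 210858_x_at, was at 5.96 and 6.23 on the control arrays, 6.32 and 6.10 on the rosiglitazone arrays, 6.38 and 6.13 on the carboplatin arrays, and 6.40 and 6.05 on the combination arrays. On 212672_at it ran from 5.25 to 5.98, and the probe sets differed in sign for each single drug against control. ATR was at 7.40 and 7.41 on the control arrays, 7.55 and 7.65 on the rosiglitazone arrays, 7.55 and 7.59 on the carboplatin arrays, and 7.40 and 7.76 on the combination arrays. Rosiglitazone and carboplatin arrays both lay above control for ATR, by 0.20 ± 0.17 and 0.17 ± 0.17, and its second probe set lay on the other side of 0 in both. H2AX, the histone variant phosphorylated at breaks, was at 10.66 and 10.86 on the control arrays, 10.64 and 10.46 on the rosiglitazone arrays, 10.64 and 10.64 on the carboplatin arrays, and 10.95 and 10.50 on the combination arrays. These H2AX values are of probe set 205436_s_at, where carboplatin differed from control by -0.12 ± 0.15. Its other tested probe sets lay above 0 there, at 0.11 ± 0.21 on 212525_s_at and 0.13 ± 0.25 on 213344_s_at. The phosphorylated H2AX protein was not measured. MDC1 was at 5.66 and 5.77, 5.60 and 5.12, 5.44 and 5.66, and 5.92 and 6.01 on probe set 203061_s_at, in the same order. The combination lay above every other array there, at 0.60 ± 0.26 from rosiglitazone (adjusted p = 1.00; 0.36 without rosiglitazone 2), with an interaction of 0.77 ± 0.36 (adjusted p = 0.825). MDC1 on probe set 203062_s_at was at 6.67 and 6.88 on the control arrays, 6.43 and 6.64 on the rosiglitazone arrays, 6.39 and 6.54 on the carboplatin arrays, and 6.63 and 6.64 on the combination arrays. It did not share that pattern, and carboplatin differed from control by -0.31 ± 0.19 (adjusted p = 0.928), or by -0.20 without control 2. The 2 TP53BP1 probe sets ran from 7.57 to 7.95 and from 6.49 to 7.18.

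Probe sets of 1 gene often disagreed. Of the 13 genes with more than 1 tested probe set, all probe sets shared a sign in 5 genes for carboplatin against control, 6 for rosiglitazone against control and 8 for the combination against control. The suffixes _s_at and _x_at mark probes that can read more than 1 transcript. Every tested probe set of FANCC, BRCA1, RAD51C, XRCC2, XRCC3, MRE11, NBN, REV3L, CHEK2, H2AX and MDC1 carries one, as does 1 tested probe set each of RAD50, ERCC1, MSH6, ATM, ATR and CHEK1. The 7 member probe sets below the filter were 3 of RAD52 and 1 each of ATM, H2AX, MRE11 and MSH6. RAD52, which anneals DNA strands, ran from 4.07 to 5.19, from 4.13 to 5.12 and from 4.45 to 5.51, near the floor of the scale, which is 4 for a signal of 0.

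Other genes of the same pathways, from lists that exclude the members, were near the background too. Of 94 listed genes 70 were named in the annotation and 65 tested, each by its brightest probe set. With carboplatin 31 of the 65 were above 0, with a median of 0, and 0 passed in either direction, where 0.015% of all probe sets did. With rosiglitazone 28 were above 0 (median -0.03) and with the combination 30 (median -0.02). Again 0 passed, where 0.36% and 0.225% of all did, so these counts are not a result about those genes. At an unadjusted p under 0.05 passed 4 of 65 with carboplatin (5.17% of all), 7 with rosiglitazone (10.4% of all) and 4 with the combination (8.42% of all). Other Fanconi genes were above 0 in 2 of 5 with rosiglitazone, 3 with carboplatin and 0 with the combination, and other mismatch repair genes in 3 of 4, 2 and 4 in the same order. The genes at an unadjusted p under 0.05 with carboplatin were HUS1, a subunit of the checkpoint clamp (0.53 ± 0.21), POLQ, a polymerase of end joining (0.45 ± 0.16), XPC, a damage sensor of nucleotide excision repair (0.43 ± 0.14), and RPA1, which coats single strands (0.38 ± 0.16). Their adjusted p ran from 0.919 to 0.927. HUS1 (0.49), POLQ (0.53) and XPC (0.40) were also at an unadjusted p under 0.05 with rosiglitazone alone. HUS1 (0.46) and XPC (0.39) were so with the combination too, and all these comparisons share the 2 control arrays. In the carboplatin main effect HUS1, POLQ, XPC and RPA1 were not under 0.05. With rosiglitazone RAD23B, a partner of XPC (0.74 ± 0.22, adjusted p = 0.251), and GTF2H3, a subunit of TFIIH (-0.62 ± 0.17, adjusted p = 0.213), had the largest differences. DDB2, another damage sensor, was chosen after its values were seen. DDB2 was at 8.69 and 8.73 on the control arrays, 8.41 and 8.26 on the rosiglitazone arrays, 8.90 and 9.19 on the carboplatin arrays, and 9.60 and 9.16 on the combination arrays. All 4 arrays with carboplatin lay above the 4 without it, and the main effect was 0.69 ± 0.12 (adjusted p = 0.253). None of these values passed.

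Targets of p53 were read on the same arrays, each by its brightest probe set. Of 11 tested p53 targets 11 were above 0 with carboplatin, against 48.7% of all probe sets. The list was drawn with earlier results of these data known, so this count is no support for a response. The median target was at 0.51, and 1 passed, where 0.015% of all probe sets did. That gene was CDKN1A, the inhibitor of cyclin-dependent kinases, at 7.43 and 7.62 in control against 9.10 and 9.06 with carboplatin (1.55 ± 0.18, adjusted p = 0.0257), so the groups were far apart. Several repair genes are transcribed mainly in S phase, so replication and proliferation genes are given beside them. Of 21 tested, 10 were above 0 with carboplatin (median -0.01, against 48.7% of all probe sets above 0). With rosiglitazone alone 7 were above 0 (median -0.13, against 48.1%), and with the combination 5 (median -0.13, against 48%). In each comparison 0 passed, where 0.015%, 0.36% and 0.225% of all did in the same order. Their part in the values of the repair genes was not tested, and a smaller share of cells in S phase cannot be told apart here from less RNA per cell.

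**Figure D4:**
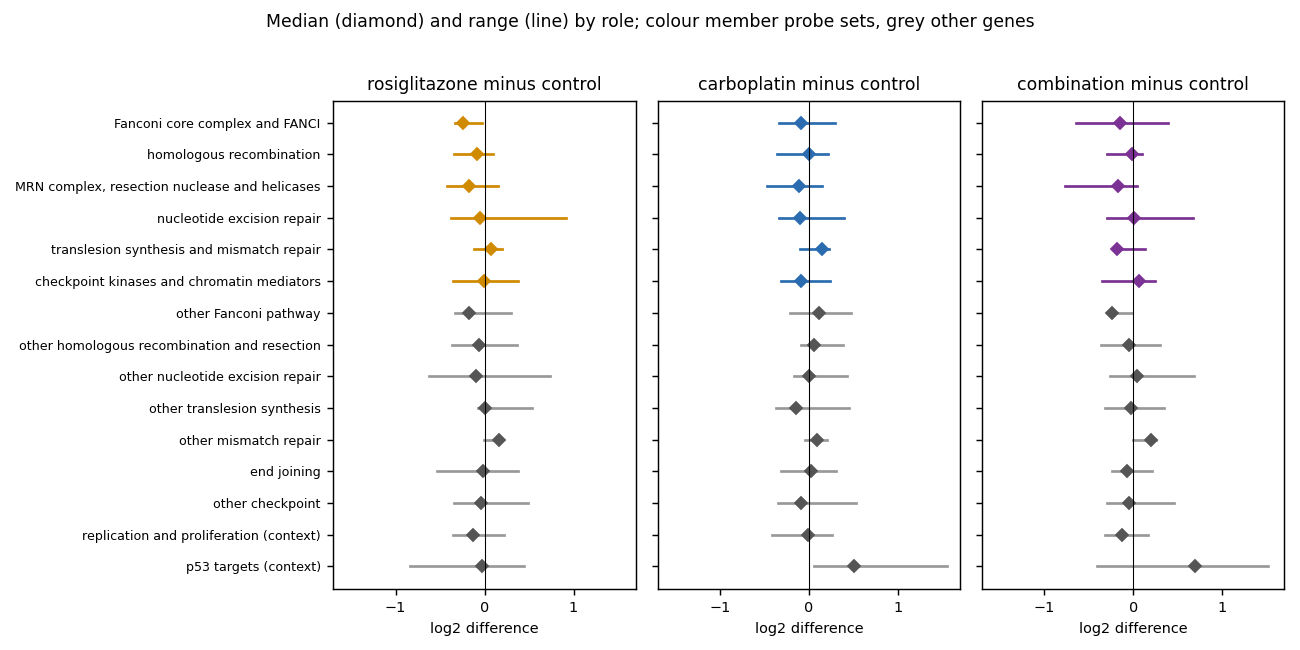
Median (diamond) and range (line) of the log2 difference from control for the member probe sets of 6 roles (coloured) and for 9 lists of other genes (grey, brightest probe set of each gene), with rosiglitazone, carboplatin and the combination in separate panels. The medians of the repair and checkpoint lists lie near 0 in each panel, from -0.24 to 0.20, while that of the p53 targets is 0.51 with carboplatin and 0.69 with the combination.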

How the data were processed

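Biotin-labelled RNA of 8 samples was measured on 8 arrays, per the labels. The deposited intensity values hold a linear signal for every probe set. How the authors corrected background or scaled the arrays is not given in the sources used here. Groups came from the sample titles. Signals were taken as log2(signal + 16) and brought to 1 distribution by quantile normalization (R 4.3.3, limma 3.58.1). The 68 control probe sets and those with a mean below the 40th percentile (5.38) were left out. Only the 19071 probe sets with 1 gene symbol were named, of which 19059 matched a RefSeq gene of GRCh38.p14 through their Entrez identifier.

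All 8 arrays entered 1 limma model of the group means (lmFit, eBayes with an intensity trend, 4 residual and 7.1 prior degrees of freedom). From it came 8 two-sided contrasts and a moderated F test, each with Benjamini-Hochberg adjustment across the 13338 probe sets. The code was tested on simulated data. The members, lists and tests were chosen with earlier results of these data known. Values by array are given for the 3 members of smallest p in each contrast and for the brightest probe set of 13 genes chosen by role, of which BRCA2 was not analysed; arrays given for FANCF, DDB2 and CDKN1A were chosen after their values were seen. Alternatives were the deposited and median scaling, pseudocounts of 1 and 64, no filter, a 60th percentile filter, no trend, a fit on the compared groups alone, a replicate block, and leaving out each array. Array brightness as a covariate was added after seeing the data. Precision is limited by the number of arrays.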

Additional observations from a re-analysis of the deposited data

How the results depend on the processing

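The count of 0 called member probe sets held in all 158 alternative fits run over the 8 contrasts and the F test, in which the smallest adjusted p of a member was 0.184. The replicate block also gave 0 for each. Differences between replicates 1 and 2 correlated from -0.11 to 0.253 between groups, with the highest value for carboplatin and the combination. The brighter array was replicate 1 in control and replicate 2 in each treated group, and the part of brightness in these correlations was not tested. They therefore cannot settle whether equal replicate numbers mark paired samples. Of the 24 log2 differences of members named by smallest p, 0 changed sign in the 399 values recomputed under 17 alternatives, and 9 further values could not be given because the probe set lay below the filter. Because the 24 were picked for small p on these same arrays, a kept sign was likely beforehand and is no support for them. Of the 399 values 26 moved by more than the SD between duplicates. A pseudocount of 64 shrank differences of dim probe sets, such as MRE11 with the combination against control from -0.77 to -0.48. A group left with 1 array borrows its spread from the others. With 2 arrays per group, dim probe sets and those with unlike duplicates, such as FANCF and ERCC2, were measured least precisely.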
